A study of Mus musculus with 12 samples.

Results

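Squalene, a precursor of all sterols, is built from acetyl-CoA by the mevalonate pathway. The 8 genes described here encode enzymes on the way from acetyl-CoA to squalene. In pathway order they are Acat2, Hmgcs1, Mvk, Pmvk, Mvd, Idi1, Fdps and Fdft1. They were picked by name from the 21671 genes of the table for their place in the pathway, with earlier results of these data known. RNA was measured in FL5.12 MycER cells, an interleukin-3-dependent line of lymphoid precursors from BALB/c mice. The cells were a retrovirally transduced and selected pool that expressed MycER constitutively. MycER is a fusion of MYC with a hormone-binding domain that is switched on by 4-hydroxytamoxifen (OHT), so every group carried it and only the OHT groups had it switched on. There were 4 conditions with 3 biological replicates each.

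Untreated cells received neither agent, and no vehicle is named for them. OHT cells received 100 nM OHT for 72 h. IACS cells received 135 nM IACS-010759, an inhibitor of complex I of the mitochondrial electron transport chain, for 24 h. OHT_IACS cells were primed with 100 nM OHT for 48 h and then given 135 nM IACS-010759 for 24 h, and it is not spelled out whether OHT stayed in the medium during those hours. Before experiments with IACS-010759 the cells had been passaged in low-glucose medium. The comparisons asked how the pathway responded to complex I inhibition without and with MycER activation, and to MycER activation without and with complex I inhibition.

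The mevalonate pathway turns acetyl-CoA, by way of HMG-CoA and mevalonate, into activated isoprene units. These units are joined into farnesyl diphosphate, which feeds squalene and cholesterol, ubiquinone, dolichol, heme A and the lipid anchors of prenylated proteins. The genes of the pathway are classical targets of SREBP2, a membrane-bound transcription factor that is released when sterols in the endoplasmic reticulum are low and held back by INSIG proteins when they are high.

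The deposited values were RPKM, that is, reads on a gene divided by its length and by the total reads of the library. The steps between RPKM values gave back whole reads for all 15451 genes above 0, within 0.001 of a read. Library totals were 10376530 to 14550158 reads, of which 4199266 to 5762340 lay on genes. OHT replicate 1, OHT replicate 3 and IACS replicate 3 were the 3 smallest libraries, so that library size was not balanced between conditions. Within conditions the reads of abundant genes rose less than the library total, with a median log2 slope of 0.59 for genes with as many reads per base as Fdps and 1.39 for genes as sparse as Fdft1. Changes that rest on the small libraries are therefore also given without them. Among markers of B-lineage cells, Pax5 and Rag1 were listed at 0 in all libraries and Ebf1 reached at most 0.0148 RPKM, while Cd79a (0.511 to 1.59 RPKM) and Cd79b (1.05 to 3.64 RPKM), chains of the B-cell receptor complex, were detected at low levels. The IL-3 receptor chains Il3ra (up to 9.78 RPKM) and Csf2rb (39.8 to 48.5 RPKM) were present, as was Mpo, a myeloid gene (8.65 to 13.7 RPKM). The summed RPKM of the 10 B-lineage and IL-3 receptor markers was 51.7 to 55.1 in untreated cells, 53.4 to 56.3 with OHT, 52.2 to 54.2 with IACS and 59.0 to 61.1 with OHT_IACS. The 6 measured markers of other lineages summed to 12.1 to 13.8, 9.46 to 11.9, 9.87 to 12.5 and 8.81 to 9.88 RPKM in the same order. Their part in the results was not tested.

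Of the 8 enzymes, 7 could be measured. Hmgcs1, the synthase that makes HMG-CoA, had 2 reads in untreated replicate 3, 1 read in OHT replicate 2 and 0 reads in the other libraries, an RPKM of at most 0.0166. The gene lies at chr13:119690379-119708260 on the plus strand (GRCm38, GENCODE). The length by which its reads were divided was 8458 bases, against 4594 bases of annotated exons, a ratio of 1.84. Of 9386 genes compared, 0.927% had a ratio that high, and the median was 0.805. Its downstream neighbours, looked at after these values were seen, were also near 0. Zfp131 had 1 to 6 reads per library with a ratio of 1.76, and Nim1k was listed at 0. Why Hmgcs1 had almost no reads was not tested, and it is treated as not measured rather than as silent.

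The 7 measured enzymes differed in level, and their RPKM can be compared with each other as far as the lengths behind them hold. In untreated cells Fdps was highest (56.5 ± 1.39 RPKM, SD, n = 3), followed by Idi1 (32.4 ± 1.58) and Acat2 (18.3 ± 0.563). Mvd (15.2 ± 1.26) and Pmvk (13.9 ± 0.165) came next, with overlapping ranges. Mvk (9.71 ± 0.248) and Fdft1 (6.57 ± 0.153) were lowest, and the ranges of these 2 did not overlap each other or their neighbours. The order with IACS was the same. In both OHT conditions Mvk stood above Pmvk and Mvd in all 3 libraries, and Mvd fell below Pmvk. The place of Fdps rests on the length used for it, 1223 bases against 4208 bases of annotated exons. Per annotated exon length of each gene, Idi1 was highest in untreated cells (26.5 ± 1.3) and Fdps (16.4 ± 0.405) lay beside Acat2 (16.3 ± 0.501). The 7 enzymes summed to 153 ± 2.73 RPKM in untreated cells, 172 ± 8.47 with OHT, 111 ± 4.9 with IACS and 133 ± 6.55 with OHT_IACS. Fdps made up 37.0% ± 0.269 of that sum in untreated cells and 42.2% ± 0.236 with OHT_IACS, or 15.8% ± 0.163 and 19.0% ± 0.137 per annotated exon length. Library totals were lower in all OHT_IACS libraries than in all untreated ones, and reads of abundant genes rose less than the total. The part of library size in the share of Fdps was not tested. In bulk RNA, fewer cells of a kind and less RNA per cell cannot be told apart.

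**Figure D1:**
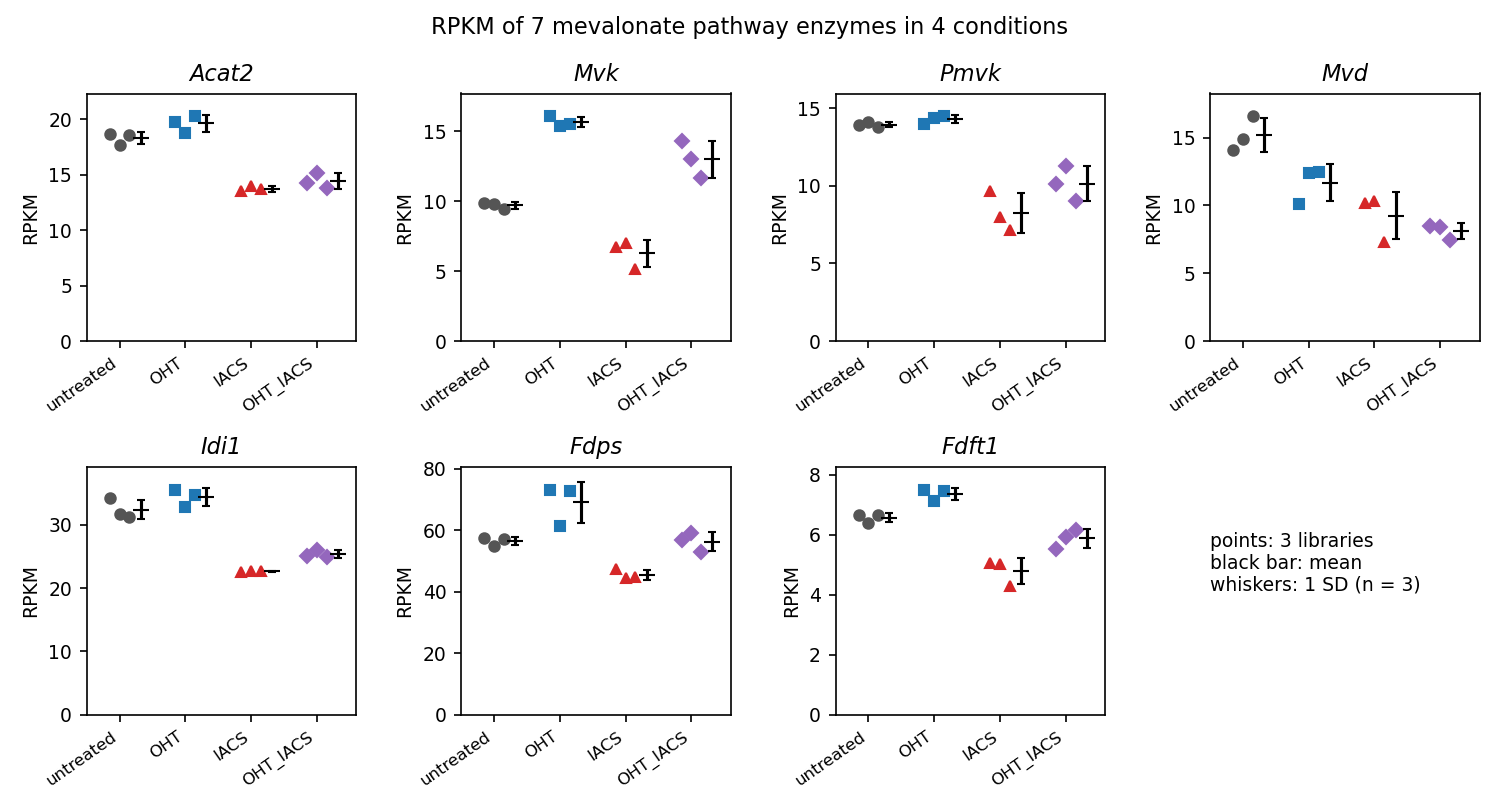
RPKM (vertical axes, starting at 0) of the 7 measured enzymes in the 3 libraries of each condition (points), with the mean and 1 SD (black bars, n = 3). All IACS points lie below all untreated points in each panel, and Mvk alone has its OHT_IACS points above its untreated ones.

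Acat2 encodes the cytosolic acetyl-CoA acetyltransferase that makes acetoacetyl-CoA, the entry step of the pathway. It lies at chr17:12942890-12960747 on the minus strand (GRCm38, as are the positions that follow). Its RPKM were 18.7, 17.7 and 18.6 in untreated cells and 13.5, 14.0 and 13.7 with IACS. With OHT they were 19.8, 18.8 and 20.3, and with OHT_IACS 14.3, 15.2 and 13.8. Acat2 thus separated by IACS-010759 into a high and a low set of 6 libraries each, without and with OHT. Reads of its near copy Acat3, which sits beside it, were few (0.653 to 1.39 RPKM), and reads that fit both genes cannot be told apart here.

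Mvk encodes mevalonate kinase, which phosphorylates mevalonate (chr5:114444269-114460591, plus strand). Its RPKM were 9.9, 9.8 and 9.43 in untreated cells and 6.7, 6.99 and 5.18 with IACS. They were 16.1, 15.4 and 15.5 with OHT and 14.3, 13.0 and 11.7 with OHT_IACS. No library of any condition overlapped another condition, and both OHT conditions lay above both conditions without OHT. Pmvk encodes phosphomevalonate kinase, the next step (chr3:89454541-89469013, plus strand). Its RPKM were 13.9, 14.1 and 13.8 in untreated cells, 14.0, 14.4 and 14.5 with OHT, 9.69, 7.99 and 7.16 with IACS and 10.1, 11.3 and 9.05 with OHT_IACS. Untreated and OHT libraries of Pmvk overlapped, and so did the IACS and OHT_IACS libraries, at a lower level.

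Mvd encodes diphosphomevalonate decarboxylase, which completes the first activated isoprene unit, isopentenyl diphosphate (chr8:122433601-122443422, minus strand). Its RPKM were 14.1, 14.9 and 16.6 in untreated cells and 10.2, 10.3 and 7.28 with IACS. They were 10.1, 12.4 and 12.5 with OHT and 8.47, 8.41 and 7.42 with OHT_IACS. Mvd was therefore lower with either agent, and the OHT libraries overlapped those with IACS alone. Idi1 encodes isopentenyl-diphosphate isomerase, which interconverts the isoprene units (chr13:8885501-8892451, plus strand). Its RPKM were 34.2, 31.8 and 31.3 in untreated cells, 35.6, 32.9 and 34.8 with OHT, 22.5, 22.7 and 22.7 with IACS and 25.1, 26.1 and 25.0 with OHT_IACS. For Idi1 the 3 IACS libraries were nearly equal and lay below those of OHT_IACS, which in turn lay below all libraries without IACS-010759.

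Fdps encodes farnesyl diphosphate synthase, the branch point towards sterols and other isoprenoids (chr3:89093588-89101959, minus strand). Its RPKM were 57.6, 55.0 and 57.1 in untreated cells and 47.3, 44.4 and 44.9 with IACS. They were 73.3, 61.5 and 72.8 with OHT and 56.7, 59.1 and 53.0 with OHT_IACS. The 2 highest values came from the 2 small OHT libraries, and OHT_IACS overlapped untreated cells. Fdft1 encodes squalene synthase, which joins 2 farnesyl diphosphates and commits them to sterols (chr14:63145150-63179578, minus strand). Its RPKM were 6.65, 6.4 and 6.67 in untreated cells, 7.51, 7.13 and 7.46 with OHT, 5.07, 5.02 and 4.28 with IACS and 5.54, 5.93 and 6.17 with OHT_IACS. The 4 conditions of Fdft1 did not overlap each other. Its end overlaps Ctsb on the other strand in the annotation, and the strand setting of the counting is not given in the sources used here.

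The whole measured pathway was lower after complex I inhibition in cells without MycER activation. All 7 of 7 tested enzymes fell from untreated to IACS cells by limma, and their groups did not overlap. Over all 9745 genes tested, 15.9% were called, 8.15% rose, 7.74% fell and 18.7% had lower, nonoverlapping groups. The median log2 fold change of the 7 enzymes was -0.54, against 0.004 over all genes. The kinase Pmvk changed most, by a log2 fold change of -0.78 ± 0.08 (SE) to 0.582 times the untreated level (limma, Benjamini-Hochberg adjusted p = 5.3e-05), and the decarboxylase Mvd followed with -0.75 ± 0.11 (limma, adjusted p = 0.00041). The kinase Mvk fell by 0.66 ± 0.09 on the log2 scale and the isomerase Idi1 by 0.54 ± 0.05. Squalene synthase Fdft1 gave -0.48 ± 0.07 and the entry enzyme Acat2 -0.44 ± 0.05, and Fdps fell least, by 0.34 ± 0.07 to 0.79 times (limma, adjusted p = 0.0082). The 3 steps from mevalonate to isopentenyl diphosphate thus had the 3 largest estimates, but the 95% intervals of Mvk (-0.85 to -0.47) and Idi1 (-0.66 to -0.43) overlapped. The 7 calls held in all 24 alternatives, including the fit without the 3 smallest libraries.

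After MycER activation the pathway was again lower with the inhibitor. From OHT to OHT_IACS cells all 7 of 7 tested enzymes fell and their groups did not overlap, where 23.7% of all genes tested were called, 11.9% rose, 11.8% fell and 19.1% had lower, nonoverlapping groups. The median log2 fold change was -0.44, against -0.014 over all genes. Mvd fell by 0.51 ± 0.11 on the log2 scale (limma, adjusted p = 0.0041), Pmvk by 0.49 ± 0.08 and both Acat2 and Idi1 by 0.44 ± 0.05. Fdft1 fell by 0.32 ± 0.07, Fdps by 0.29 ± 0.07 and Mvk by 0.27 ± 0.09, the last with the weakest evidence (limma, adjusted p = 0.04). The Mvk call held in 13 of 24 alternatives, with adjusted p from 0.011 to 0.16. Without the 3 smallest libraries, which leaves 1 OHT library assumed to vary like the other groups, 4 of the 7 calls remained (Acat2, Pmvk, Mvd and Idi1), while Mvk gave -0.23, Fdft1 -0.25 and Fdps -0.10 (limma, adjusted p = 0.14, 0.065 and 0.24).

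**Figure D2:**
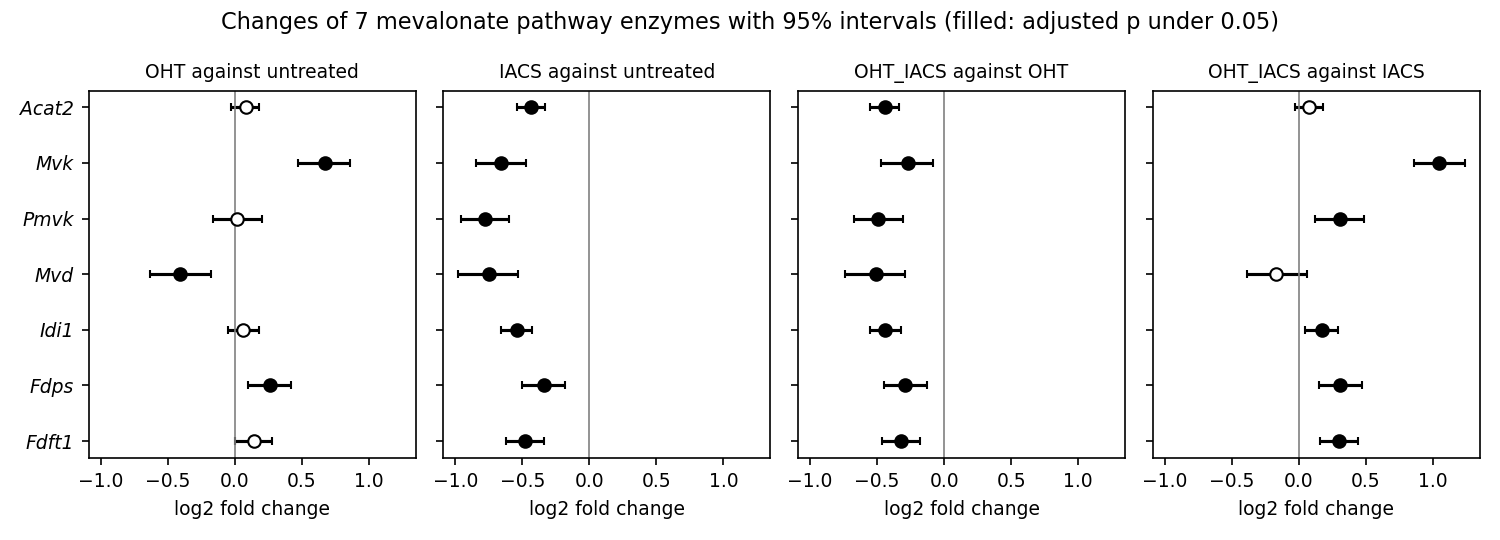
Log2 fold changes (horizontal axes) of the 7 enzymes in the 4 pairwise comparisons, with 95% intervals from limma; filled points have an adjusted p under 0.05. Both responses to IACS-010759 (middle panels) lie left of 0 for all 7 enzymes, whereas in the panels for OHT Mvk stands to the right, at 0.67 and 1.05, and Mvd to the left, at -0.41 and -0.17.

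MycER activation alone did not move the enzymes together. In OHT against untreated cells 2 of 7 rose (Mvk and Fdps) and 1 fell (Mvd), where 18.2% of all genes tested rose and 18.2% fell, 36.4% in all. The share called among the enzymes was thus near that of all genes, and their median log2 fold change was 0.08, against 0.013 over all genes. Mvk rose 1.59-fold, a log2 fold change of 0.67 ± 0.09 (limma, adjusted p = 7.8e-05), and this call held in all 24 alternatives. Mvd fell by 0.41 ± 0.11 on the log2 scale to 0.754 times (limma, adjusted p = 0.0088), and Fdps rose by 0.26 ± 0.07 (limma, adjusted p = 0.014). In a fit that took the library total as a covariate Mvd gave -0.21 and Fdps 0.11 (limma, adjusted p = 0.21 and 0.14), and without the 3 smallest libraries Fdps gave 0.08 (limma, adjusted p = 0.36). The other 4 did not pass the test, with 95% intervals of -0.03 to 0.18 for Acat2, -0.16 to 0.20 for Pmvk, -0.05 to 0.18 for Idi1 and 0.00 to 0.28 for Fdft1.

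Within inhibitor-treated cells, MycER activation went with higher levels of most of the pathway. From IACS to OHT_IACS cells 5 of 7 rose (Mvk, Pmvk, Idi1, Fdps and Fdft1) and none fell, where 12.3% of all genes tested rose and 14.2% fell, 26.5% in all. The median log2 fold change was 0.30, against -0.003 over all genes. Mvk rose 2.07-fold, by 1.05 ± 0.09 (limma, adjusted p = 2.5e-06). Fdps rose by 0.31 ± 0.07 and Fdft1 by 0.30 ± 0.07 (limma, adjusted p = 0.0078 and 0.0049), and these 3 calls held in all 24 alternatives. Pmvk rose by 0.31 ± 0.08 with overlapping groups and Idi1 by 0.17 ± 0.05 (limma, adjusted p = 0.016 and 0.032), each called in 19 of 24 alternatives. For Acat2 the interval was -0.03 to 0.18 and for Mvd -0.39 to 0.06. Without IACS replicate 3, a small library in which Mvd was at 7.28 RPKM against 10.2 and 10.3 in the other two, the change of Mvd was -0.31 and was called (limma, adjusted p = 0.016). Without the 3 smallest libraries Pmvk was not called (0.23, limma, adjusted p = 0.073) and Mvd was called as lower (-0.31, limma, adjusted p = 0.0086).

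Whether the response to IACS-010759 differed between nonprimed and OHT-primed cells was tested as the interaction. By limma 0 of 7 enzymes were called, where 0.144% of all genes tested were called (14 genes), and 0 were called by limma voom on the recovered reads. At an unadjusted p under 0.05 there were 2 of the 7, where 12.7% of all genes tested lay under it. These were Mvk with 0.38 ± 0.13 (95% interval 0.11 to 0.65, limma, adjusted p = 0.25) and Pmvk with 0.29 ± 0.12 (0.03 to 0.54, limma, adjusted p = 0.34). The estimate was 0.00 for Acat2 and between 0.05 and 0.38 for the other 6, with a median of 0.16 over the 7, so that a smaller fall in OHT-primed cells was not shown for any single enzyme, and the intervals do not show equal responses either. The comparisons above share their control libraries, and their values stand side by side without a test of likeness.

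Mvk and Mvd, whose steps are separated only by that of Pmvk, parted with OHT. This ratio was chosen after their values were seen, so it is given without a test. The RPKM of Mvk over that of Mvd was 0.703, 0.656 and 0.569 in untreated libraries and 0.659, 0.68 and 0.712 with IACS. It was 1.60, 1.25 and 1.25 with OHT and 1.69, 1.55 and 1.57 with OHT_IACS. The ratio lay below 1 in all 6 libraries without OHT and above 1 in all 6 with it. Without OHT it differed little between untreated and IACS cells. With OHT the ranges with and without IACS-010759 overlapped, and the mean was higher in OHT_IACS cells. Group means were 0.643 ± 0.068, 0.684 ± 0.0267, 1.36 ± 0.203 and 1.60 ± 0.0712 (SD, n = 3) in the order untreated, IACS, OHT and OHT_IACS.

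**Figure D3:**
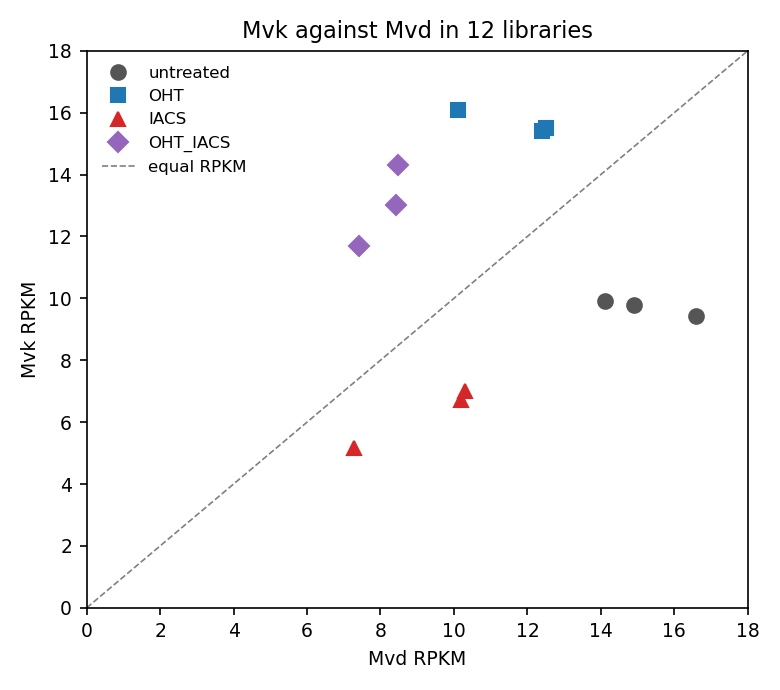
RPKM of Mvk (vertical axis) against RPKM of Mvd (horizontal axis) in the 12 libraries, with a dashed line of equal RPKM. The 6 libraries with OHT lie above the line, at ratios of 1.25 to 1.69, and the 6 without it below, at 0.569 to 0.712, while IACS-010759 shifts points towards the origin.

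The promoters of these 2 genes and of Acat2 are shown because the first moved up with OHT, the second down and the third passed no test with OHT, while all 3 fell with IACS-010759. They were chosen after the values were seen. The sequences are from RefSeq (GRCm38.p6), read 5′ to 3′ on the strand of the gene and ending at the base before the annotated start. The Mvk stretch is the whole 208 bases between its start and that of Mmab, which runs the other way. Capitals mark CCAAT (the NF-Y motif) and GGGCGG (the Sp1 motif) on either strand.
Mvk, chr5:114444061-114444268, plus strand: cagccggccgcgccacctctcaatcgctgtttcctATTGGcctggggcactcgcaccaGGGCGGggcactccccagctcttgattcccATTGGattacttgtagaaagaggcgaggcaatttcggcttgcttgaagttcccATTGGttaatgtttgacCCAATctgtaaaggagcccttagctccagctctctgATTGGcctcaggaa
Mvd, chr8:122443423-122443672, minus strand: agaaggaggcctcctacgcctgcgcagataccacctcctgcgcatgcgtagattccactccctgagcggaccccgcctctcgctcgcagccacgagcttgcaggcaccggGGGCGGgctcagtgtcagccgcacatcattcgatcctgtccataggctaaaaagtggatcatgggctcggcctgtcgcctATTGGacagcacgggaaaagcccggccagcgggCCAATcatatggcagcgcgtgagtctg
Acat2, chr17:12960748-12960975, minus strand: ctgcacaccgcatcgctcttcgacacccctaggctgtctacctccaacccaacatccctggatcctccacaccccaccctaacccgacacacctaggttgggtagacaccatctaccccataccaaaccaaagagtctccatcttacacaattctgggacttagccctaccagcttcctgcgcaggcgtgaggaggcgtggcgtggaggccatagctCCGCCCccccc

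The stretch between Mvk and Mmab held 5 CCAAT and 1 GGGCGG, that of Mvd 2 and 1, and that of Acat2 0 and 1. NF-Y and Sp1 are known partners of SREBPs at sterol-regulated promoters. Of 32851 RefSeq promoters, 33.8% held CCAAT in the 250 bases before the start, 32.7% held GGGCGG and 0.213% held at least 5 CCAAT as Mvk does. A sterol response element (TCACNCCAC, in 1.05% of promoters) was found in the 250 bases of Hmgcs1 and in none of those of Acat2, Mvk, Pmvk, Mvd or Idi1. The E-box CACGTG bound by MYC (6.02%) and the element TGATGNAAT bound by ATF4 with C/EBP proteins (0.816%) were in none of the 6 genes. Fdps and Fdft1 had no entry in the table. These matches describe letters in a short window and show neither binding nor its absence.

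Mmab, which encodes a cobalamin adenosyltransferase and shares this stretch with Mvk, is known as a sterol-regulated neighbour of Mvk. It was picked after the values of Mvk were seen. Its RPKM were 7.03, 7.54 and 7.57 in untreated cells and 8.2, 7.6 and 6.32 with IACS. They were 7.19, 7.95 and 7.62 with OHT and 8.4, 8.96 and 9.38 with OHT_IACS. Mmab overlapped between untreated, OHT and IACS cells and was highest with OHT_IACS. Its log2 fold change was 0.02 ± 0.07 with OHT and -0.04 ± 0.07 with IACS (limma, adjusted p = 0.88 and 0.77), and it rose from OHT to OHT_IACS by 0.23 ± 0.07 (limma, adjusted p = 0.037), where Mvk fell. From IACS to OHT_IACS Mmab rose by 0.28 ± 0.07 (limma, adjusted p = 0.012), where Mvk rose too.

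The steps after squalene were read from a list of 12 late sterol enzymes, all tested. In IACS against untreated cells 9 of 12 fell (75%, against 7.74% of all genes tested) and 0 rose, with a median log2 fold change of -0.39, and in OHT_IACS against OHT cells 10 of 12 fell (83.3%, against 11.8%), with a median of -0.30. Dhcr7, a terminal reductase of cholesterol synthesis, changed most with IACS, from 7.44 ± 0.191 to 4.17 ± 0.619 RPKM (-0.86 ± 0.11, limma, adjusted p = 0.00019). Nsdhl, which acts in the removal of methyl groups from lanosterol, went from 12.3 ± 0.274 to 7.97 ± 0.381 RPKM, and Lss, which closes the sterol rings, from 11.5 ± 0.00714 to 7.58 ± 0.48. Cyp51, the lanosterol demethylase, went from 20.4 ± 0.262 to 13.8 ± 1.12 RPKM. With OHT 4 of the 12 rose and 1 fell, where 18.2% of all genes tested rose and 18.2% fell. The fall was not called with the library total as a covariate, where 4 rose and 0 fell. From IACS to OHT_IACS 7 rose and 1 fell, where 12.3% of all genes tested rose and 14.2% fell. These shares of all genes also apply to the lists below. Sqle, the squalene epoxidase that takes up the product of Fdft1 and is named here for that place, fell by 0.33 ± 0.05 on the log2 scale with IACS and rose by 0.23 ± 0.05 with OHT (limma, adjusted p = 0.00068 and 0.0027).

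The 19 genes that use isoprenoid units outside sterol synthesis, such as protein prenyltransferases and enzymes of dolichol and ubiquinone, had medians near 0 in both responses to IACS-010759, with different counts. With IACS 1 of 19 rose and 2 fell (10.5%, against 7.74% of all genes tested), with a median log2 fold change of 0.04. Coq2, which attaches the isoprenoid tail of ubiquinone, rose by 0.24 ± 0.06 (limma, adjusted p = 0.013). Dolk, the dolichol kinase, fell by 0.36 ± 0.08 and Icmt, which methylates prenylated proteins, by 0.28 ± 0.05 on the log2 scale (limma, adjusted p = 0.0058 and 0.0018). From OHT to OHT_IACS 4 rose and 7 fell (36.8%, against 11.8% of all genes tested) with a median of -0.03, and 1 rose and 3 fell without the 3 smallest libraries. With OHT 8 rose and 1 fell, and from IACS to OHT_IACS 6 rose and none fell, against 6 and 2 without the 3 smallest libraries.

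Of 15 genes that regulate or carry sterols, 13 were tested and 6 fell and 1 rose with IACS (46.2% and 7.69%, against 7.74% and 8.15% of all genes tested). Insig1, the SREBP retention factor and itself an SREBP target, went from 23.9 ± 0.212 to 13.2 ± 1.02 RPKM, a log2 fold change of -0.88 ± 0.04 (limma, adjusted p = 7.8e-08). Srebf2, which encodes SREBP2, went from 13.6 ± 0.55 to 11.4 ± 0.095. Abcg1, a sterol exporter, was the gene that rose, by 0.45 ± 0.08 (limma, adjusted p = 0.003). In OHT_IACS against OHT cells 6 of the 13 fell and 2 rose, and 3 fell and 1 rose without the 3 smallest libraries. With OHT 4 rose and 5 fell, against 3 and 2 without those libraries, and from IACS to OHT_IACS 6 rose and 2 fell.

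A list of 8 genes of acetyl-CoA supply and paralogs of the enzymes shares Ggps1, named for that, with the users of isoprenoid units. Of the 8 genes, 6 were tested and 1 rose with IACS. This was Acat1, the mitochondrial counterpart of Acat2, with 19.7, 19.8 and 20.8 RPKM in untreated cells and 24.1, 23.6 and 23.4 with IACS. Acat1 rose by 0.21 ± 0.05 on the log2 scale (limma, adjusted p = 0.012), where Acat2 fell by 0.44. In OHT_IACS against OHT cells 1 rose and 1 fell (Ggps1), and in each of the comparisons by OHT 1 rose. Without the 3 smallest libraries none fell in the former and none rose from untreated to OHT.

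**Figure D4:**
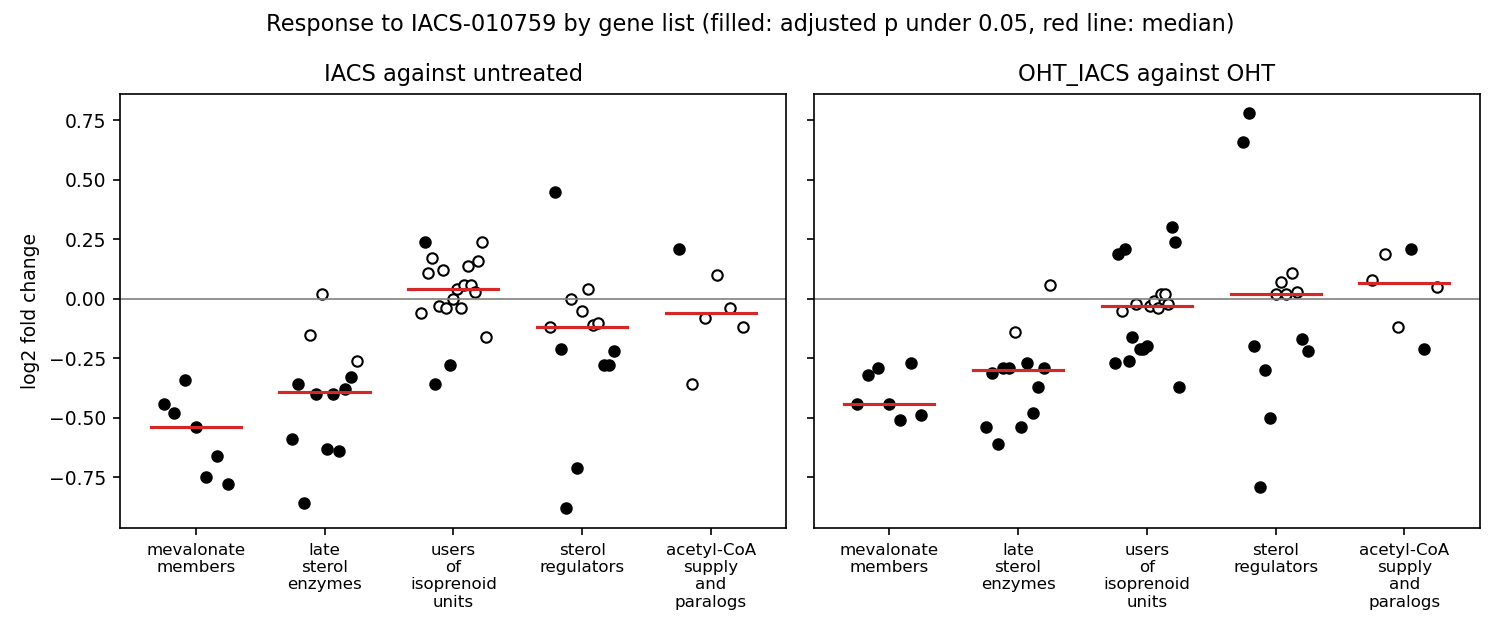
Log2 fold changes (vertical axis) of each tested gene in 5 lists for IACS against untreated (left) and OHT_IACS against OHT (right); filled points have an adjusted p under 0.05 and red lines are medians. The medians are -0.54 and -0.44 for the mevalonate enzymes and -0.39 and -0.30 for the late sterol enzymes, against 0.04 and -0.03 for users of isoprenoid units. Ggps1 is shown both there and under acetyl-CoA supply and paralogs.

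Among the 7 enzymes, the profile over the 12 libraries was most alike for Fdft1, Idi1 and Acat2. The root mean square difference in log2 level from the mean of the other 6 was 0.081 for Fdft1, 0.091 for Idi1, 0.113 for Acat2, 0.128 for Pmvk and 0.137 for Fdps. It was 0.327 for Mvd and 0.394 for Mvk, the pair that parted with OHT. Outside the 7, the 5 genes closest to their mean profile were Nsdhl (0.061), the fatty acid elongase Elovl6 (0.076), the ubiquitin ligase gene Rnf145 (0.077), Utp14b (0.085), whose reads cannot be told apart from those of Acsl3 where both overlap on the same strand, and the mitochondrial transporter gene Abcb10 (0.088). The median over the 9738 other genes tested was 0.301. These distances cover 12 libraries of 4 conditions and carry no test.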

How the data were processed

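RNA-seq of FL5.12 MycER cells was grouped by the treatment label into 4 conditions of 3 replicates. Libraries were stranded and ribosomal RNA was depleted. The authors deposited RPKM per gene and library. The submitters' processing notes name TopHat2 2.0.8, featureCounts 1.4.5-p1, SAMtools, DESeq2 and mm9, without roles. The authors also deposited log2 fold changes of their DESeq2 comparisons, and adjusted p-values in columns beside them, and neither was used. The list of 8 enzymes, the other lists and the tests were chosen with earlier results of these data known.

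Reads, lengths and totals were worked out from the RPKM steps. Libraries were scaled by median ratios (0.974 to 1.026), and a gene entered the test if 3 or more libraries had it at an RPKM of 1 or more. Values were compared as log2(RPKM + 0.1) with limma, all 12 libraries in a single fit with a mean-variance trend, two-sided, with Benjamini-Hochberg adjustment over 9745 genes and a threshold of 0.05. Fold changes on this scale understate changes of low genes. A called gene passed this threshold, and a ± after a log2 fold change is its SE. In groups of 3 an exact permutation test could not pass 0.05, so single values outside the fit carry no p.

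The text names all 8 enzymes, up to 4 genes per list with the largest called change in IACS against untreated (an item this would name is not reported here), the 5 genes nearest in profile, and others said to be chosen otherwise. Motifs were chosen with the data in hand and searched on both strands in the 250 bases before RefSeq starts (7 records for 6 of the 8 genes). Positions and exon lengths are from GENCODE on GRCm38. When IACS against untreated was simulated with 198 genes shifted by a log2 value of 1, 197 were called with the right sign, and 12 unshifted genes were called, of 9657 tested. The simulated reads were drawn in proportion to library totals, unlike the measured ones. The simulation therefore does not measure errors from unequal library size, nor the power for smaller changes. Alternatives were other pseudocounts, filters and scalings, no trend, only the groups compared, a replicate block, and each library left out. Chosen once the data had been seen were limma voom on the recovered reads, leaving out the 3 smallest libraries, and a fit with the library total (log2) as covariate. R 4.3.3 with limma 3.58.1 was used for the fits, and python 3.11.15 with pandas 2.3.3, numpy 2.4.6 and matplotlib 3.10.9 for the rest.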

Additional observations from a re-analysis of the deposited data

How the results depend on the processing

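All 7 calls in IACS against untreated cells held in all 24 alternatives. Called enzymes ranged, on leaving out 1 library, from 2 to 3 for OHT against untreated, from 5 to 7 for OHT_IACS against OHT and from 3 to 5 for OHT_IACS against IACS, with 3 without IACS replicate 2 or OHT_IACS replicate 2. The median log2 fold change of the last ranged from 0.23 to 0.33. Genes called in all ranged from 949 to 1805 for IACS against untreated (949 without untreated replicate 1), from 1521 to 2995 for OHT_IACS against OHT (1521 without OHT_IACS replicate 3), and from 3 to 149 for the interaction (149 without OHT replicate 2). With the library total as a covariate, 1 enzyme and 2351 genes were called for OHT against untreated. Without the 3 smallest libraries, 2215 genes were called there and the enzymes' median was 0.01. In the same fit OHT_IACS against OHT gave 4 enzymes, 1301 genes and a median of -0.35, and OHT_IACS against IACS a median of 0.23. The interaction, with 14 genes called, gave 5 with RPKM as deposited, the covariate or without the 3 smallest libraries, 7 without a filter, 34 with quantile normalization and 25 with voom.

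Direction turned only for estimates near 0. Acat2 with OHT became 0.00 with the covariate and without the 3 smallest libraries. Idi1 with OHT became -0.01 (quantile normalization), -0.03 (covariate) and -0.02 (without the 3 smallest). The interaction of Acat2 became 0.03, 0.05, 0.00 (voom) and 0.10 in the same order, and -0.05 to 0.02 on leaving out 1 library. That of Fdps ranged from -0.05 (without OHT replicate 2) to 0.11 on leaving out 1 library. The cause was not tested. Of 833 enzyme values, 782 kept their direction and side of the threshold.

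Samples with the same replicate number did not deviate together (correlation -0.17 to 0.10, median -0.04, over 18 pairs, 1 above 0.1), so the numbers do not pair the samples. The replicate block changed no call among the enzymes and gave 7 genes for the interaction. Hmgcs1, with at most 2 reads, was not measured, and why was not tested. Library size limits Fdps, which is among the abundant genes whose reads rose less than library totals.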
